A study of Mus musculus with 6 samples.

Results

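The beta crystallin family comprised 6 genes here, Cryba1, Cryba2, Cryba4, Crybb1, Crybb2 and Crybb3, taken by name from the 41128 features listed for each library. All 6 were listed, and all 6 had enough counts to be tested. The libraries came from mouse lenses at stage E13.5 of embryonic life. In 3 of them the lenses were a Prox1 conditional knockout (cKO), with both Prox1 alleles floxed and the MLR10-Cre transgene present (Prox1 f/f MLR10Cre+). The other 3 were wild type, and C57Bl/6 is given as the strain of both groups (the series' design gives the wild type as C57Bl/6 <har>). MLR10-Cre is driven by an altered alpha A crystallin promoter and is active in lens epithelium and fibres. Every library was a biological replicate from a pool of 30 lenses. No library carried the transgene alone or the floxed alleles alone, so the effect of either and that of losing Prox1 cannot be told apart. Nothing in the labels says whether litters were shared between pools, and p-values therefore measure the spread between these pools.

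Beta crystallins are structural proteins of the lens. Each is built from 2 domains of the Greek key type that it shares with the gamma crystallins, and the acidic (A) and basic (B) subunits join into dimers and larger oligomers in the cytoplasm of fibre cells. Their genes are switched on when lens cells stop dividing and elongate as fibres. Factors that regulate them, up or down, include large Maf proteins, Sox proteins, Pax6 and Prox1 itself. Cryba1 encodes 2 proteins, beta A3 and beta A1, from different start codons of 1 transcript, so its counts cover both. Crybb2 is known for its rise after birth, when its protein becomes a main component of the lens.

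Library totals lay between 9082219 and 28391662 counts in the cKO and between 20731491 and 21061582 in the wild type. Wild type library 1 stood apart from the other wild type libraries, with lower crystallin counts. Levels are given as deposited CPM, the count of a gene scaled to a common library total. For Prox1, the targeted gene, CPM was 907, 1024 and 1040 in wild type libraries 1, 2 and 3, against 780, 799 and 772 in those of the cKO. The groups did not overlap, but transcript was still read in the cKO. Its log2 change was -0.70 (edgeR adjusted p 0.0074), and with scaling by library total alone the adjusted p was 0.0532. No source used here gives the exons between the floxed sites, so these counts over the whole gene check the labels only in part.

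The loci fall on 3 chromosomes (GRCm38, GENCODE M21 annotation). Cryba1 lies at chr11:77718615-77725283 on the minus strand, within the span of Nufip2, which runs on the plus strand, and the exons of the pair share 0 bases. Cryba2 lies at chr1:74889934-74893143 on the minus strand. Cryba4 (chr5:112246493-112252518, minus strand) and Crybb1 (chr5:112255815-112269585, plus strand) stand head to head, with 3296 bases between them. Crybb2 (chr5:113058258-113070117, minus strand) and Crybb3 (chr5:113075839-113081584, minus strand) follow each other in the same direction, with 5721 bases between them. No exon base of any member is shared with another annotated gene. Of the 51-base windows of each member's main coding transcript, the length of the reads, 0 occurred exactly in a transcript of another gene. The aligned coding bases of any 2 members are between 63.8% and 71.4% identical, the highest value being that of Crybb1 and Crybb3. The other annotated exons of the members, which the counts also cover, were not searched.

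The promoters are shown because 5 of these genes fell together in the comparison that follows, while Crybb2 did not pass the test. All 6 matched the RefSeq table (GRCm38.p6). The 150 bases before each RefSeq start are printed 5′ to 3′ on the gene's strand. Capitals mark 2 motifs on either strand, TATAAA, the letters of a TATA box, and TGCTGA, a core of the element to which Maf proteins bind. On the other strand that core reads TCAGCA.
Cryba1 (chr11:77725294-77725443): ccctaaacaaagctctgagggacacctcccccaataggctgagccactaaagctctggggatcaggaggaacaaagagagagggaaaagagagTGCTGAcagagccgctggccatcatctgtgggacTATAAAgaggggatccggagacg
Cryba2 (chr1:74893144-74893293): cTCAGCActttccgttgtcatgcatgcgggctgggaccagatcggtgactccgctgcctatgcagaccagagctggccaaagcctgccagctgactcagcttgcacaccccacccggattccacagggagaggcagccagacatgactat
Cryba4 (chr5:112252519-112252668): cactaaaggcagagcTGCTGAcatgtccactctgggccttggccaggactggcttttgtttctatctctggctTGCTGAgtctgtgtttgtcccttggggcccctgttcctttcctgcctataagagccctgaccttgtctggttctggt
Crybb1 (chr5:112255670-112255819): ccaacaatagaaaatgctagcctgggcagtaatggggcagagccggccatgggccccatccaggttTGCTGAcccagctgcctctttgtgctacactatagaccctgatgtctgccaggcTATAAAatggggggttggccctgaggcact
Crybb2 (chr5:113070118-113070267): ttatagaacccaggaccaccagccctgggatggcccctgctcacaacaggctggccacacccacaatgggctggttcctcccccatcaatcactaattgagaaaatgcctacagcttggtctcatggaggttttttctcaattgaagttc
Crybb3 (chr5:113081585-113081734): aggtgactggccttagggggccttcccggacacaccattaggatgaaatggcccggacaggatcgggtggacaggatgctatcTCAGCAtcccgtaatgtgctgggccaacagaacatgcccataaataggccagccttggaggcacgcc

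Within 250 bases before the start, TGCTGA occurred in 5 of the 6 members, all but Crybb2, and in 16.1% of all 32851 RefSeq windows of that length. Cryba4 held it 3 times, and the match nearest to the start was that of Cryba1, at -57 to -52. TATAAA occurred in Cryba1 (-23 to -18) and Crybb1 (-30 to -25), against 12.4% of all windows. ACAANG, letters bound by Sox and other HMG box proteins, occurred in all 6 members and in 36.3% of all windows. GAANNTTC, letters of a heat shock element, occurred in 0 members and in 6.69% of all windows. These are matches of letters, searched on both strands, and Crybb2 and Crybb3 have further annotated starts that were not searched. Whether any motif bears on the change of these genes was not tested.

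In the wild type, 5 of the 6 genes were among the most abundant transcripts of the lens, and in the cKO the same 5 were lower in every library. Crybb3, a basic subunit, stood at 14440, 26435 and 26013 CPM in wild type libraries 1, 2 and 3, against 2848, 3174 and 3087 CPM in those of the cKO. Crybb1, the subunit with the longest terminal extensions, stood at 14539, 21933 and 24866 CPM, against 1920, 2209 and 2721 CPM. Wild type library 1 was the lowest of its group for both, yet lay far above the highest cKO library.

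Cryba1, an acidic subunit, had wild type levels of 8664, 15866 and 15103 CPM and cKO levels of 1366, 1484 and 1819 CPM. Cryba4, another acidic subunit, went from 5729, 10131 and 9960 CPM to 477, 826 and 950 CPM. Cryba2, the least abundant of the acidic subunits, went from 3738, 6241 and 6485 CPM to 324, 537 and 508 CPM. For these 3 acidic subunits, library 1 was the lowest of each group. The wild type and cKO ranges did not overlap for any of them.

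Crybb2 was of another order of magnitude. Its wild type levels were 4.13, 5.74 and 5.53 CPM and its cKO levels 5.42, 3.76 and 1.43 CPM. The groups overlapped, since cKO library 1 lay above wild type library 1. These levels rest on 87, 119 and 115 counts in the wild type libraries and 154, 41 and 13 counts in the cKO libraries. In cKO library 3 the 95% exact Poisson interval of its 13 counts runs from 0.762 to 2.45 CPM, and in cKO library 1 that of its 154 counts runs from 4.601 to 6.352 CPM. The intervals cover counting error only, and the cKO libraries thus differed among themselves by more than counting error.

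**Figure D1:**
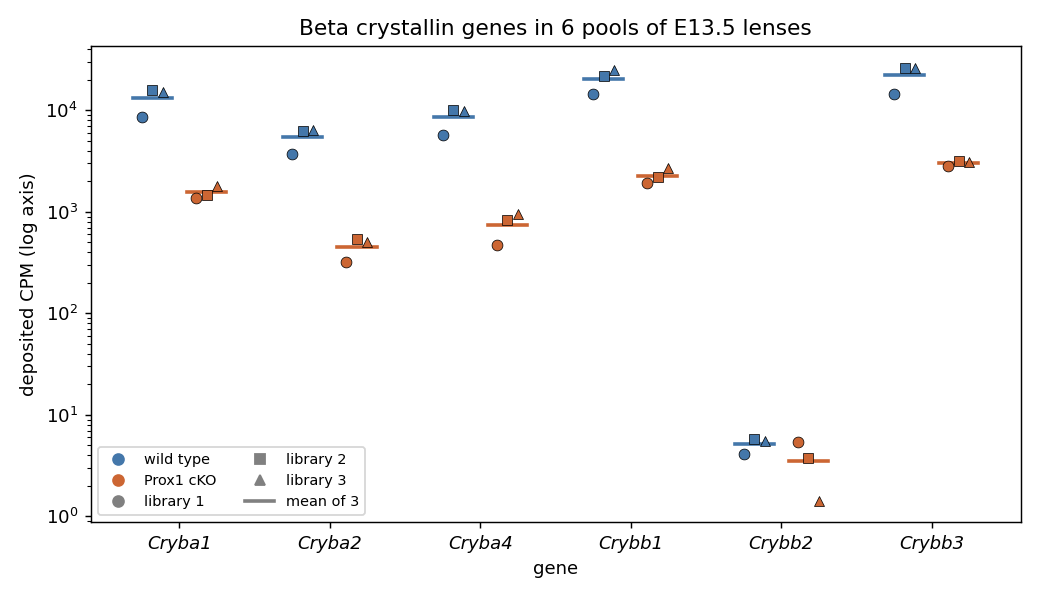
Deposited CPM (log axis) of the 6 beta crystallin genes in 3 wild type (blue) and 3 Prox1 cKO (orange) libraries, each symbol a library and each bar the mean of 3. For 5 genes all cKO libraries lie below all wild type libraries, while Crybb2 lies between 1.43 and 5.74 CPM with overlapping groups.

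The fall lay between 9.54-fold and 15.5-fold in the 5 abundant members. Cryba2 fell 15.5-fold (log2 change -3.96, SE 0.346, 95% interval -4.75 to -3.17, edgeR adjusted p 0.000186). Cryba4 fell 14.8-fold (log2 change -3.88, SE 0.387, edgeR adjusted p 0.000292). Crybb1 fell by 3.53 on the log2 scale (SE 0.307) and Cryba1 by 3.46 (SE 0.318). Crybb3 had the smallest fall of the 5, 9.54-fold (log2 change -3.25, SE 0.309, 95% interval -3.96 to -2.55, edgeR adjusted p 0.000238). The 95% intervals of these 5 overlapped one another. They include the spread between libraries, such as the low wild type library 1, so their overlap does not show equal falls. Ratios of members within a library are given below. These values come from a fit with TMM scaling, in which the factors were 1.09 to 1.1997 in the cKO and 0.835 to 0.984 in the wild type, so the folds exceed the ratios of deposited CPM, which lay between 7.34 (Crybb3) and 12.0 (Cryba2).

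Crybb2 was not called (log2 change -0.86, SE 0.385, 95% interval -1.73 to 0.02, edgeR adjusted p 0.118). The interval includes 0 and a fall of more than 3-fold, and excludes the change of each of the other 5 genes as fitted. Across all other tests and library omissions its adjusted p lay between 0.052 and 0.314 and its log2 change between -1.28 (without cKO library 1) and -0.47 (scaling by library total); it was -0.53 without cKO library 3.

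In counts, 5 of 6 members were called, where 32.6% of the 14271 features tested were called. All 5 fell, against 16.8% of the features tested, and 0 rose, against 15.9%. The same 5 members fell at least 8-fold, a size reached by 0.792% of the features tested. All cKO libraries lay below all wild type libraries for 5 of 6 members, and for 25.7% of all features tested, and the groups lay apart in either direction for 50.1%. The median log2 change was -3.50 over the 6 members and 0.04 over all features tested. With scaling by library total alone, 945 features fell and 5423 rose, against 2396 and 2263 with TMM, and the same number of members, 5, fell. In bulk lenses, fewer fibre cells and less RNA per fibre cell cannot be told apart.

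Levels of different genes can be compared only per length, and here the length mattered. The deposited RPKM, CPM over gene length in kilobases, of each member divides by the length of all its annotated exons merged, which equals the GENCODE value exactly for all 6 members. For Crybb3 that is 2333 bases, 2.62 times the 892 bases of its longest principal coding transcript, and 11 transcripts are annotated, 2 of them with a retained intron. The ratio was 2.22 for Crybb2, 2.05 for Cryba1 and 1.66 for Cryba2, but only 1.12 for Crybb1 and 1.04 for Cryba4. Which bases the reads covered is not shown by the files.

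By deposited RPKM the wild type order was Crybb1 (20757 ± 5403), Cryba4 (10270 ± 2976), Crybb3 (9557 ± 2918), Cryba1 (8288 ± 2482), Cryba2 (4600 ± 1275) and Crybb2 (2.55 ± 0.434; SD, n = 3 libraries each). Crybb1 lay apart from Cryba4 in its range over libraries. From Cryba4 to Crybb3, Cryba1 and Cryba2 the ranges of neighbours overlapped, although each was above the next in 3 of 3 libraries. Cryba2 lay far above Crybb2. Crybb1 ranked 2 by mean RPKM of 29126 features, and the other abundant members ranked 5, 6, 7 and 11.

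Per kilobase of the main coding transcript, a length chosen after the merged lengths were seen, Crybb3 came first. It had 24995 ± 7631 CPM per kilobase in the wild type, Crybb1 23181 ± 6034, Cryba1 16980 ± 5085, Cryba4 10652 ± 3086, Cryba2 7622 ± 2112 and Crybb2 5.66 ± 0.965 (SD, n = 3 libraries each). Crybb3 and Crybb1 did not differ beyond their spread, and Crybb3 was the higher in 2 of 3 libraries. Under either length Cryba2 came next to last and Crybb2 last.

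In the cKO the RPKM order was Crybb1 (2318 ± 412), Crybb3 (1302 ± 72.4), Cryba1 (976 ± 147), Cryba4 (896 ± 293), Cryba2 (382 ± 96.9) and Crybb2 (1.76 ± 0.997; SD, n = 3 libraries each). By RPKM Cryba4 thus ranked 2 in the wild type and 4 in the cKO, but it did not differ from Cryba1 beyond its spread in the cKO. Crybb3 varied least, with a coefficient of variation of 5.56% over the cKO libraries, and Cryba4 most of the abundant members, with 32.7%. Per kilobase of main transcript the cKO order was the same as in the wild type, Crybb3 first with 3404 ± 189 (SD, n = 3). Crybb1 ranked 10 and Cryba2 ranked 54 by mean RPKM in the cKO.

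**Figure D2:**
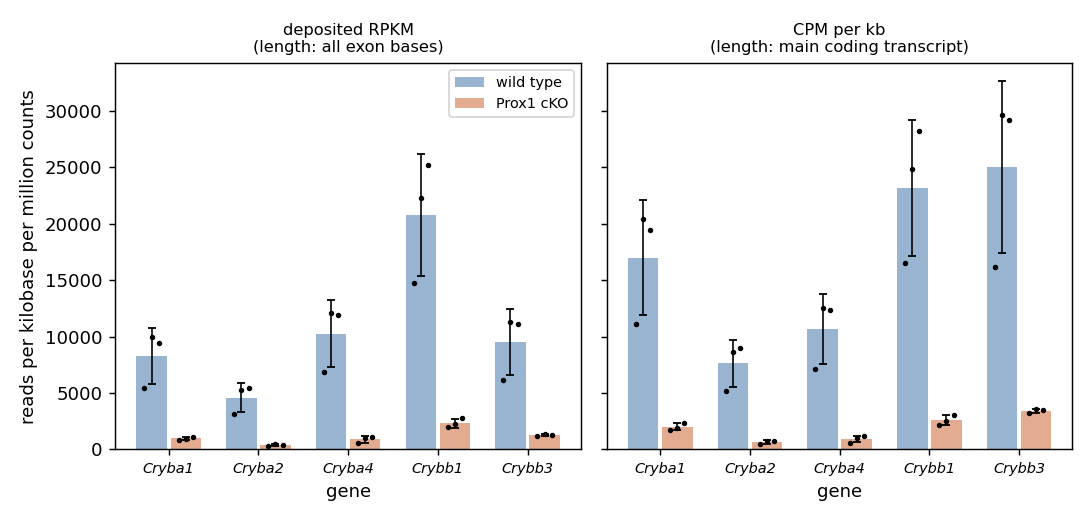
Levels per length of the 5 abundant members in wild type (blue) and cKO (orange), as deposited RPKM (left) and as CPM per kilobase of the main coding transcript (right). Bars are means of 3 libraries, error bars 1 SD and dots the libraries; Crybb1 is highest on the left and Crybb3 on the right, and Crybb2, at 1.76 to 5.66, is left out because it would not be visible.

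The wild type libraries differed in the level of the family more than in its make-up. In wild type library 1 the CPM of the abundant members was between 0.551 (Crybb3) and 0.621 (Crybb1) times the mean of wild type libraries 2 and 3. The 6 members together took 4.71%, 8.06% and 8.24% of all counts in wild type libraries 1, 2 and 3 and 0.694%, 0.823% and 0.909% in the cKO libraries. The groups did not overlap, the mean share being 7.01 ± 1.99% against 0.809 ± 0.108% (SD, n = 3; exact permutation test, two-sided p = 0.10, the smallest that 3 against 3 allows). Without wild type library 1 all 5 abundant members still fell by edgeR, Crybb3 by 3.58 and Cryba2 by 4.26 on the log2 scale.

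Within the family, the share of Crybb3 was higher in the cKO and the shares of Cryba2 and Cryba4 were lower. Crybb3 took 30.6%, 32.8% and 31.6% of the beta crystallin counts in wild type libraries 1, 2 and 3 and 41.0%, 38.6% and 33.98% in the cKO libraries. Cryba4 took 12.2%, 12.6% and 12.1% in the wild type and 6.87%, 10.04% and 10.5% in the cKO. Cryba2 took 7.93%, 7.74% and 7.87% in the wild type and 4.66%, 6.52% and 5.59% in the cKO. For each of these 3 genes the groups did not overlap (exact permutation p = 0.10), and cKO library 1 lay farthest from the wild type.

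Cryba1 took 18.8 ± 0.767% of the family's counts in the wild type and 19.2 ± 1.07% in the cKO, and Crybb1 29.4 ± 1.94% and 28.1 ± 1.61% (SD, n = 3). Neither share differed beyond the spread, with exact permutation p = 0.70 and p = 0.40. Crybb2 took 0.00753 ± 0.00109% in the wild type and 0.0465 ± 0.0312% in the cKO, a higher share in every cKO library than in any wild type library, while its CPM was not higher.

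**Figure D3:**
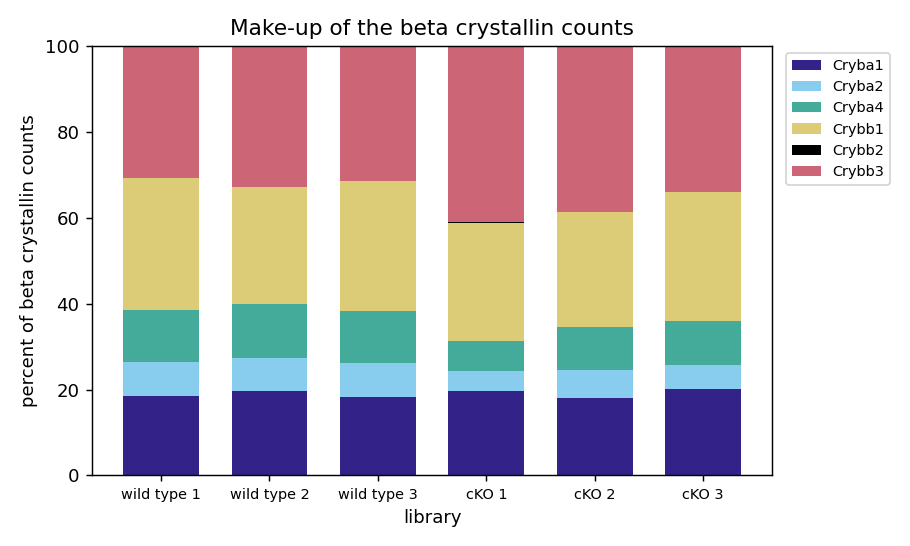
Share of each member in the beta crystallin counts of a library, in percent, for 3 wild type and 3 cKO libraries. The Crybb3 segment is 30.6% to 32.8% in the wild type and 33.98% to 41.0% in the cKO; Crybb2 is below 0.1% in every library.

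The ratio of 2 members within a library does not depend on how libraries are scaled. Of the 15 pairs, 11 had ratios that did not overlap between the groups. They were the 5 pairs with Crybb2 and 6 of the 10 pairs among the abundant members. Pairs that share a gene are not independent, and ratios of other genes were not examined. As single features, 50.1% of those tested lay apart in either direction. The head-to-head pair Cryba4 and Crybb1 was 1 of the 6 abundant pairs that lay apart. Its log2 ratio was -1.34, -1.11 and -1.32 in wild type libraries 1, 2 and 3 and -2.01, -1.42 and -1.52 in the cKO libraries. Cryba2 against Cryba4 did not lie apart (mean log2 ratio -0.64 in the wild type and -0.69 in the cKO). The largest shift among the abundant members was that of Cryba2 against Crybb3, from -2.01 ± 0.0668 to -2.77 ± 0.321 (SD, n = 3). In exact permutation tests the smallest p was 0.10, the lowest this design allows, and 0.136 after Benjamini-Hochberg adjustment over the 15 pairs.

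In summed counts, the beta family stood between the alpha and the gamma crystallins. Alpha crystallins, Cryaa and Cryab, are small heat shock proteins that act as chaperones, and gamma crystallins are monomers of the same fold as the beta crystallins. Beta genes made up 35.7%, 37.5% and 36.3% of the counts of the 16 crystallin genes in wild type libraries 1, 2 and 3 and 24.3%, 29.1% and 29.0% in the cKO libraries. The log2 ratio of beta to alpha counts went from -0.32 ± 0.129 to -1.21 ± 0.263, and that of beta to gamma counts from 1.04 ± 0.204 to 1.59 ± 0.255 (SD, n = 3). Beta counts thus fell more than alpha counts and less than gamma counts, and neither ratio overlapped between the groups (exact permutation p = 0.10 for each, and 0.10 after adjustment over the 9 sums and ratios compared). All 10 other crystallin genes fell by edgeR, against 16.8% of all features tested, and their median log2 change was -3.92. Single gamma genes did not all fall more than the beta genes. Crygn, at -2.87, fell less than each of the 5 abundant beta genes as fitted, and Cryge (-3.75) and Crygc (-3.86) lay above Cryba2 and Cryba4. Differences between single genes of the families were not tested.

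**Figure D4:**
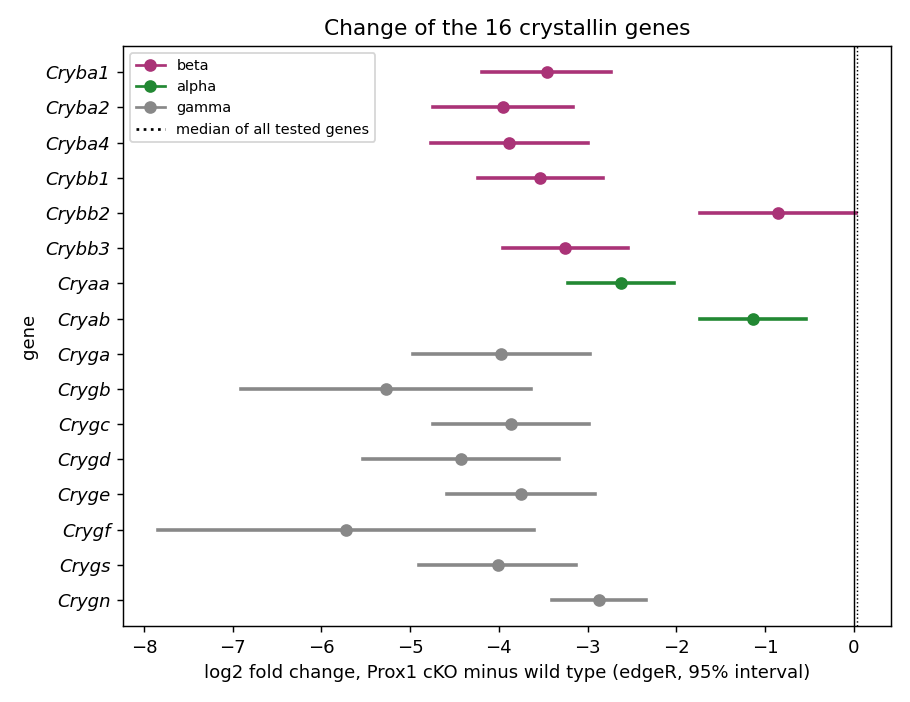
Log2 fold change of the 16 crystallin genes, cKO minus wild type, with 95% intervals from the edgeR fit, for beta (purple), alpha (green) and gamma (grey) genes; the dotted line is the median of all tested genes, 0.04. The abundant beta genes lie between -3.96 and -3.25, below both alpha genes, while Crybb2 lies at -0.86 with an interval that includes 0.

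Of 8 protein-coding genes that flank the members on either side, 6 were tested, and by edgeR 0 fell and 1 rose. Over all features tested the shares were 16.8% and 15.9%, so counts this small do not set the flanking genes apart from other features. None of the 6 was called lower under any alternative that tested it, while Tpst2, Myo18a, 2900026A02Rik and Taok1 were called higher with scaling by library total or without cKO library 1. Grk3, a receptor kinase gene 42466 bases from Crybb2, rose (log2 change 1.18, edgeR adjusted p 0.00159), from 6.32 ± 1.03 to 14.4 ± 1.11 CPM with TMM scaling (SD, n = 3). Tpst2, 7105 bases from Crybb1, had a log2 change of 0.16 (edgeR adjusted p 0.363). Nufip2, whose span holds Cryba1, had a log2 change of -0.37 (edgeR adjusted p 0.0696). It was called lower under 4 of 14 alternatives: DESeq2 (adjusted p 0.0477), no filter (0.0423), the replicate block (0.0321) and leaving out wild type library 1 (0.0132, log2 change -0.53). With scaling by library total its log2 change was -0.01.

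Proteins of the beta-gamma fold outside the crystallins did not follow the family. Crybg3 had a log2 change of 0.27 (edgeR adjusted p 0.154) and Crybg1, listed under its older symbol Aim1, of -0.31 (edgeR adjusted p 0.609). Of the 2 tested, 0 were called by edgeR, DESeq2 or limma-voom, 1 with scaling by library total, and Crybg2 had too few counts to be tested.

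Of 20 known or proposed regulators of beta crystallin genes, 18 were tested, of which 7 fell, 3 rose and 8 were not called. Of all features tested, 16.8% fell and 15.9% rose. The targeted gene Prox1 is on this list and among the 7 that fell. Hsf4, a heat shock factor of fibre cells, fell by 3.57 on the log2 scale (edgeR adjusted p 0.000195), its level going from 129 ± 46.6 to 11.2 ± 2.90 CPM with TMM scaling. Mafa, a large Maf factor, fell by 3.47 on that scale (edgeR adjusted p 0.000124), its TMM-scaled level going from 12.6 ± 2.54 to 1.198 ± 0.302 CPM. The small Maf gene Mafg fell by 1.16 (edgeR adjusted p 0.000508). Maf, the large Maf factor of fibre differentiation, fell by 0.77 (edgeR adjusted p 0.0187), its level going from 1279 ± 270 to 752 ± 142 CPM with TMM scaling (SD, n = 3). The call of Maf was lost without cKO library 3 (0.0565), wild type library 2 (0.0735) or wild type library 3 (0.0674) and with scaling by library total (0.0684). Those that rose were Rara (1.11), Gata3 (0.83) and Pax6 (0.46), the last not without wild type library 2 (edgeR adjusted p 0.116) or 3 (0.0875). Without wild type library 2 or 3 the list had 4 members that fell and 2 that rose, and with scaling by library total it had 3 and 7. Under that scaling 945 of all 14271 features tested fell and 5423 rose. In all 6 libraries, Sox1 and Sox2 had a listed count of 0.

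Among 9476 features outside the crystallins with a mean of at least 10 CPM, the pattern over the 6 libraries most like the mean of the 5 called members was that of Hsf4. Its root mean square difference, on log2 CPM centred over the libraries, was 0.0844, against a median of 1.82 for all these features. Next came the connexin gene Gje1 (0.126), Lim2_2, 1 of the numbered copies under which the fibre membrane gene Lim2 is listed (0.143), the water channel gene Mip (0.163) and the R-spondin gene Rspo1 (0.165). On the same measure Crybb1 was 0.0943 from that mean, Crybb3 0.236 and Crybb2 1.45. The 6 points share their libraries and 2 groups, and the likeness is a description.

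Genes that mark fibres and other cells moved beside the family. All 12 tested fibre genes other than crystallins fell by edgeR, with a median log2 change of -3.55, and 9 of them fell by limma-voom. Of all features tested, 16.8% fell and 15.9% rose by edgeR, and 2381 of 14271 fell by limma-voom. A list of 5 fibre markers, all of which fell, summed to 4821 to 8163 CPM in the wild type and 1098 to 1523 CPM in the cKO. Of 8 lens epithelium markers, 4 rose and 3 fell, and their sum was 4688 to 4989 CPM in the wild type and 4278 to 5142 CPM in the cKO. With TMM scaling the epithelium sums were 5069 to 5656 and 3913 to 4286 CPM, lower in every cKO library. These sums follow the most abundant markers, Aldh1a1 (mean 2566 CPM in the wild type, 1544 in the cKO) and Sfrp1 (1856 and 833). Both fell, while the median log2 change over the 8 markers was 0.34.

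Marker sums of 4 tissues around the lens were higher in every cKO library than in any wild type library, in deposited CPM and with TMM scaling, while the calls given are those with TMM scaling. Pigment cell markers summed to 68.3 to 187 CPM in the wild type and 289 to 795 CPM in the cKO (5 of 6 rose, 3 to 5 without 1 library). Neural retina markers summed to 182 to 332 and 372 to 640 CPM (2 of 7 rose, 0 to 4 without 1 library). With TMM scaling the retina sums nearly met, at 215 to 338 CPM in the wild type and 341 to 534 CPM in the cKO. Periocular mesenchyme markers summed to 181 to 407 and 554 to 2467 CPM (1 of 6 rose, 0 to 4 without 1 library). Surface ectoderm markers summed to 2.70 to 13.01 and 19.7 to 103 CPM (4 of 4 rose, 1 to 4 without 1 library). Library 1 had the highest wild type sum in all 4 lists, and cKO library 3 the highest cKO sum in all but the retina list. In cKO libraries 1 and 2 the mesenchyme sums were 795 and 554 CPM and the ectoderm sums 51.9 and 19.7 CPM. With scaling by library total, 5 of 7 retina, 6 of 6 mesenchyme, 5 of 6 pigment and 4 of 4 surface ectoderm markers rose. Under that scaling 5423 of all 14271 features tested rose. With TMM scaling 15.9% of them rose, so the mesenchyme and retina calls do not set those lists apart from other features.

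For blood vessel endothelium the sums were 195 to 426 and 446 to 550 CPM, and for macrophages 24.9 to 64.5 and 65.8 to 91.8 CPM, with 0 markers called by edgeR in either list. At an unadjusted p under 0.05 the counts were 3 and 1 in edgeR. DESeq2 called 2 endothelial and 1 macrophage markers, and edgeR without wild type library 1 called 5 and 3. With scaling by library total 5 of 6 endothelial and 4 of 5 macrophage markers rose, where 5423 of all 14271 features tested rose. With TMM scaling the sums overlapped between the groups, at 233 to 433 and 372 to 503 CPM for endothelium and 29.8 to 65.6 and 54.8 to 83.5 CPM for macrophages. Erythroid sums (609 to 2279 and 1578 to 2287 CPM; 3 of 7 rose, 0 to 2 without 1 library), neuron sums (61.0 to 102 and 74.2 to 112 CPM; 1 of 6 fell, 0 to 1 without 1 library and 0 by limma-voom) and muscle sums (4.65 to 11.5 and 2.29 to 75.9 CPM; 0 called) overlapped between the groups on both scales. None of the listed markers was at 0 in every library. The part of these tissues in the change of the beta crystallin genes was not tested.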

How the data were processed

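RNA of 6 lens pools, selected by poly-T beads and prepared with a TruSeq RNA kit v2, was sequenced as single-end reads of 51 bases, per the labels' protocols. Each deposited table holds, per the file headers, the raw count of every feature with its CPM and RPKM. The deposited CPM equals the raw count over the library total (within 1e-06) and the RPKM made by the authors divides CPM by 1 length per feature. The submitters' processing notes name edgeR and GRCm38. No aligner, counting program or annotation is named in the sources used here. In 26 features count and CPM belonged to different members of a pair of like names, and these were left out (at most 0.0636% of a library).

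Raw counts were filtered by filterByExpr (minimum count 10), scaled by TMM and compared by the edgeR 4.0.16 quasi-likelihood test (R 4.3.3) with group as the only term. Benjamini-Hochberg adjustment covered all 14271 tested features, and an adjusted p under 0.05 was called. SE is the log2 change over the square root of F. Sums and within-library ratios (0.5 counts added for pairs) were compared by exact permutation. The fits were tested on simulated data. Named genes were the 6 members, the 5 nearest in pattern, the targeted gene and up to 3 per list by size of change, and others were chosen with their values seen. The members and lists were chosen with earlier results of these data known. Alternatives were DESeq2 1.42.0, limma-voom (limma 3.58.1), 3 scalings, 2 filters, a replicate block, other lengths and leaving out each library. The TMM-scaled marker sums and the alternatives for flanking genes were added after the data were seen.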

Additional observations from a re-analysis of the deposited data

How the results depend on the processing

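Cryba1, Cryba2, Cryba4, Crybb1 and Crybb3 kept their fall and their call under all 14 alternatives each, with an adjusted p of at most 0.00213, and Crybb2 was called under none. The count of features called was 4659, and 2267 to 5317 without 1 library, the lowest without wild type library 2 (2475 without wild type library 3). Scaling by library total moved the median log2 change of all features to 0.39, and Crybb3 then stood at -2.88. The replicate block gave 4176 features and 5 members called and changed no member's call. Same-numbered libraries deviated with correlations of -0.0276, 0.254 and 0.111, and differently numbered ones with -0.224 to 0.0878. These values do not settle whether the numbers pair the groups. The numbers were not taken as pairs because no label states a pairing. Against RPKM, CPM left 2 of 6 members at their rank in the wild type and 4 in the cKO, as did the main transcript length (2 and 4, added after the data were seen). Leaving out cKO library 1 left 4, where leaving out any other library left 6. The share of Crybb1 within the family, lower in the cKO by counts, was higher by 0.387 percentage points by RPKM (exact permutation p = 0.60). Depth limits Crybb2, with 13 to 154 counts per library.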
